A study of Homo sapiens with 30 samples.

Results

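The late end of a BMP4 response was described from the 24 h arrays of a time course in 5 established lines of human breast cancer cells, which were HCC1419, HCC1954 and MDA-MB-361 together with SK-BR-3 and ZR-75-30, and values of the 5 lines are given in that order. These are 5 of the 30 two-colour arrays of the series, 1 per line, taken by their time point label, and each was paired with the 30 min array of the same line. On every array the RNA of cells given recombinant human BMP4 carried the dye Cy5, and the RNA of cells of the same line given vehicle for the same time carried Cy3. Cells of triplicate treatments were pooled before extraction, so each channel holds 1 pooled RNA and the 5 lines are the replicates. Values are log2 of BMP4 over vehicle, where 1 is a 2-fold higher level with BMP4. A difference is this ratio at 24 h minus the ratio at 30 min in the same line, and the dyes were never swapped, so the difference lacks any dye bias that a probe shows equally on both arrays.

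BMP4 is a secreted ligand of the transforming growth factor beta superfamily. It binds type I and type II serine/threonine kinase receptors, which phosphorylate SMAD1, SMAD5 and SMAD9, and these enter the nucleus with SMAD4. Direct targets include the ID genes, whose proteins bind basic helix-loop-helix transcription factors and keep them from DNA, and the inhibitory SMADs, SMAD6 and SMAD7, which feed back on the receptors. In breast cancer cells BMP4 is known for slowing proliferation and for changing migration.

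The arrays carried 41000 probes, of which 40248 had a value on all 30 arrays. At 24 h the share of probes well above background was 60.0% to 68.5% in Cy3 and 59.3% to 67.9% in Cy5, and at 30 min it was 58.9% to 68.5% and 57.1% to 68.8%. The epithelial markers EPCAM, KRT8, KRT18, KRT19, CLDN4 and ERBB2 were well above background on 10 of 10 arrays and CDH1 on 8, whereas LUM of fibroblasts and TEK of endothelium were on 0. The probes of CD3E, CD14, CD79A and VWF were also well above background on 10 arrays and that of the fibroblast gene COL1A1 on 9. None of the 15 markers of fibroblasts, leukocytes or endothelium changed with an adjusted p under 0.05. The observed slope of the spike-in controls was 0.67 to 0.85 at 24 h and 0.63 to 0.75 at 30 min, so folds are compressed. HCC1419 and MDA-MB-361 had their 24 h and 30 min arrays scanned on the same day, the other 3 lines had not, and in no line did the paired arrays share a slide.

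The first question was which genes stood apart from 30 min after 24 h of BMP4 in all lines. ID1 to ID4, the feedback gene SMAD6 and genes of other functions led by UCA1, GPER1, EDN2, S100P and UNC5B were higher, and few genes were lower. With limma over all 30 arrays and the cell line as a block, 60 probes were higher (0.149% of 40248) and 6 were lower (0.0149%) at an adjusted p under 0.05. The 60 probes included 52 with a gene symbol, from 46 genes, and 58 were higher in all 5 lines, beside 4.52% of all probes. All 6 lower probes were lower in all 5 lines, beside 2.7% of all probes. The calls were made from these same differences, so the shared sign goes with the call and is not separate support. Of the higher probes 15 rose at least 2-fold, with a median difference of 0.76 and a range from 0.27 to 1.31. The lower ones ranged from −0.36 to −0.48, so that none fell 2-fold. The spread was estimated on 20 residual degrees of freedom from all time points. Fitted on the 10 arrays at 24 h and 30 min alone, with 4 degrees of freedom, limma called 0 probes in either direction (1772 higher and 809 lower at an unadjusted p under 0.05), and there all 60 and all 6 had an unadjusted p under 0.05, the estimates being the same by construction.

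The 12 h arrays took no part in this difference itself but entered the spread by which probes were called. Their ratios are against vehicle and keep any dye bias, so what follows is a description and not an independent check. At 12 h, 41 of the 60 higher probes had a ratio above 0 in all 5 lines, beside 3.92% of all probes, and 2 of the 6 lower ones a ratio below 0 in all 5, beside 3.14%. The lines took unequal parts in the rise. The median difference over the 60 probes was highest in MDA-MB-361 (0.89) and ZR-75-30 (0.87), followed by HCC1419 (0.74) and SK-BR-3 (0.62), and lowest in HCC1954 (0.48), while the median over all probes lay between −0.01 and 0.01 in each line. Over the 20841 probes well above background on the 10 arrays, the differences of any 2 lines correlated with r between −0.34 (HCC1954 with SK-BR-3) and 0.30 (MDA-MB-361 with SK-BR-3), given here as a description across probes, which are not independent.

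The ID genes were above vehicle from 1 h on and were still high at 24 h. ID1 (probe at chr20:29657819-29657878 in build hg18) had log2 ratios at 24 h of 1.83, 1.40 and 1.61 in HCC1419, HCC1954 and MDA-MB-361 and of 0.81 and 1.43 in SK-BR-3 and ZR-75-30. At 30 min the same lines read 0.51, 0.39, 0.29, 0.35 and 0.56, so the ID1 ratio was already above 0 at the reference point, and the groups did not overlap. These ratios keep any dye bias, and its part in the 30 min values was not tested. The difference was 1.00 ± 0.17 (SE of the fit over all 30 arrays, n = 5 lines, limma adjusted p = 0.00818), with SK-BR-3 the lowest at 0.47.

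ID2 was the only gene with a ratio of at least 2-fold at 24 h in all 5 lines, and this held for 1 of its probes. That probe read 1.08, 2.23, 1.38, 1.06 and 2.39 in the 5 lines in turn. Another ID2 probe was below 2-fold in HCC1419 (0.81) and SK-BR-3 (0.98). With the log ratio of the scanner software, 4 probes were at least 2-fold higher in all 5 lines. The difference from 30 min was 1.31 ± 0.24 with the former ID2 probe (adjusted p = 0.0173) and 1.04 ± 0.14 with the latter (adjusted p = 0.000791), both higher in 5 of 5 lines. ID3 read 1.14, 1.32, 1.42, 0.66 and 0.52 at 24 h in the same order, against −0.17 to 0.21 at 30 min, a difference of 1.00 ± 0.14 (adjusted p = 0.0011). ID3 was thus highest in MDA-MB-361 and lowest in SK-BR-3 and ZR-75-30. ID4 rose by 0.92 ± 0.17 (adjusted p = 0.0205), with line differences from 0.48 in ZR-75-30 and 0.52 in SK-BR-3 to 1.27 in MDA-MB-361.

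The 24 h arrays were also compared with the mean of the 1, 3 and 6 h arrays of the same line, called the early mean here, and no ID gene passed. Through 1, 3, 6, 12 and 24 h the ratio of ID1 averaged 1.33, 1.37, 1.5, 1.47 and 1.42, and that of ID3 0.84, 0.99, 0.98, 0.92 and 1.01. From the early mean, ID1 differed at 24 h by 0.02 ± 0.14, ID2 by 0.11 ± 0.20, ID3 by 0.07 ± 0.11 and ID4 by 0.16 ± 0.14 (limma adjusted p between 0.988 and 0.998). Transcript tags beside ID1 (CN479126, chr20:29657031-29657090, 1.28 ± 0.19) and ID3 (AW327568, chr1:23757351-23757410, 1.12 ± 0.23) were also called (adjusted p = 0.00375 and 0.0416), and the array does not say whether they belong to the same transcripts.

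**Figure D1:**
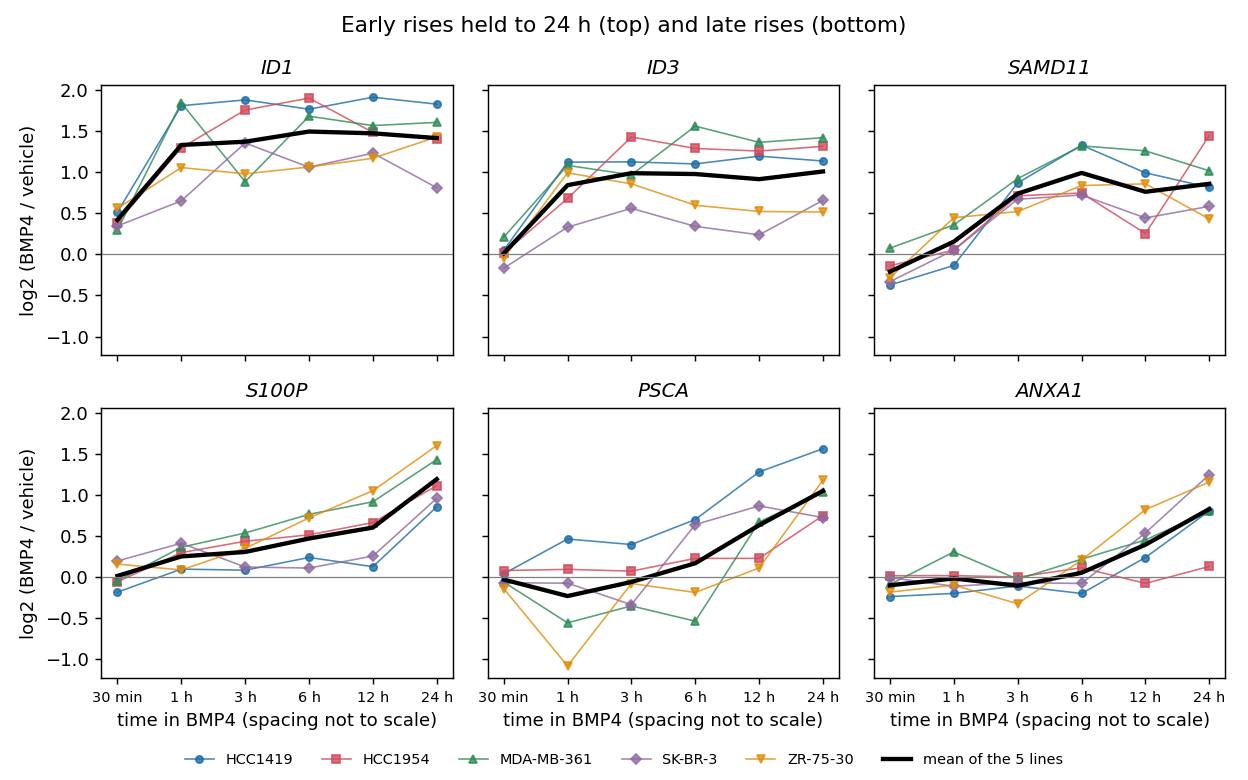
Log2 ratio of BMP4 over vehicle (vertical axis) at each of the 6 time points (horizontal axis, evenly spaced and not to scale) for ID1, ID3 and SAMD11 in the top row and S100P, PSCA and ANXA1 in the bottom row. Thin coloured lines are the 5 cell lines, 1 array per point, and the thick black line is their mean, which for ID1 is 0.42 at the first time point, 1.33 at the second and 1.42 at the last, and for S100P 0.01, 0.25 and 1.19.

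Other genes were also called against 30 min but not against the early mean, though not all were above vehicle as soon as 1 h. SAMD11, a sterile alpha motif protein of little known function, read 0.82, 1.45, 1.02, 0.59 and 0.43 at 24 h in the order of lines given, against −0.37 to 0.08 at 30 min. The groups did not overlap, and the difference was 1.07 ± 0.16 (adjusted p = 0.00375, higher in 5 of 5 lines), and that from the early mean was 0.23 ± 0.13 (adjusted p = 0.893). At 1 h SAMD11 lay between −0.13 and 0.45, and at 3 h between 0.52 and 0.92. DUSP2, a nuclear phosphatase that inactivates MAP kinases, rose by 1.09 ± 0.20 (adjusted p = 0.0173). Its differences ran from 0.26 in HCC1954 to 2.09 in MDA-MB-361, and the other DUSP2 probe gave 0.91 ± 0.21 (adjusted p = 0.0919), which did not pass. GPER1 (on the array as GPR30), a membrane receptor that binds oestrogen, read 0.38 in HCC1954 and 1.22 to 1.58 in the other 4 lines at 24 h, and rose by 1.21 ± 0.20 (adjusted p = 0.00818). BMF, a BH3-only protein that promotes cell death by binding BCL2 relatives, rose by 0.84 ± 0.11 (adjusted p = 0.000791), with differences of 0.46 in HCC1419 and 0.63 in HCC1954 and 0.99 to 1.08 in the other lines. The transcription factor GATA2 rose by 0.88 ± 0.16 (adjusted p = 0.0167), most in HCC1419 (1.68) and least in HCC1954 (0.25). The feedback gene SMAD6 averaged 0.09, 0.69, 0.78, 0.67 and 0.64 at 1, 3, 6, 12 and 24 h. The differences of GPER1 (0.39 ± 0.16), DUSP2 (0.23 ± 0.16), BMF (0.25 ± 0.09), GATA2 (0.34 ± 0.13) and SMAD6 (0.12 ± 0.11) from the early mean did not pass (adjusted p between 0.583 and 0.991). Failing to pass does not show that these ratios were level after 6 h.

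Promoter sequences of SAMD11, DUSP2 and SMAD6 and of S100P, a gene called against the early mean as well, are shown so that the letters bound by SMAD proteins can be looked at. They come from RefSeq (GRCh38.p14), run 5′ to 3′ from 250 bases before to 50 bases after the start of the gene, and capitals mark GGCGCC, a GC-rich element described for SMAD1 and SMAD5, and GTCTAGAC, the palindrome bound by SMAD3 and SMAD4. Each motif reads the same on both strands.
SAMD11 promoter, chr1:925481-925780, plus strand: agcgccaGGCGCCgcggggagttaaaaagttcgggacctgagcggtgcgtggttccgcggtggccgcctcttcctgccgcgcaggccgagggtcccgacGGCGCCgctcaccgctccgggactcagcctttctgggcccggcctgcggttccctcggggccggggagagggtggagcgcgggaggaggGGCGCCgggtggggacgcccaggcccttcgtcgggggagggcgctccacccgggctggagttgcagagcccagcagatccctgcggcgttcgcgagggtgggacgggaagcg
DUSP2 promoter, chr2:96145391-96145690, minus strand: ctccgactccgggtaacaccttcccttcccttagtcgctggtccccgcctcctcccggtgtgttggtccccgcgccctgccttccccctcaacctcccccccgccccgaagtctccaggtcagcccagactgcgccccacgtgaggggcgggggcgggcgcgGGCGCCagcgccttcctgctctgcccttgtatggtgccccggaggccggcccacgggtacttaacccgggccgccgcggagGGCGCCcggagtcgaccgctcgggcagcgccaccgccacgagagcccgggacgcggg
SMAD6 promoter, chr15:66701986-66702285, plus strand: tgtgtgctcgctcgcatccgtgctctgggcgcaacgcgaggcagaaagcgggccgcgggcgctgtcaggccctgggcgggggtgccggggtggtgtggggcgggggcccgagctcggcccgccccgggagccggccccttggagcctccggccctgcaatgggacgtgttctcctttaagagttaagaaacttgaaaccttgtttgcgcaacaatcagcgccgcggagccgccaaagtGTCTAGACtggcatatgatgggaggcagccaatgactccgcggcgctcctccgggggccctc
S100P promoter, chr4:6693628-6693927, plus strand: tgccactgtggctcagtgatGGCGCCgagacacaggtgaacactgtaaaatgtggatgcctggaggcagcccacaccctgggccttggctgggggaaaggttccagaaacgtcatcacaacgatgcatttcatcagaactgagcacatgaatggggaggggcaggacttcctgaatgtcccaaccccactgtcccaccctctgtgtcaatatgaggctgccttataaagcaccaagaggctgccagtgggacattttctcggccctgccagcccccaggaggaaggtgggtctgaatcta
The SAMD11 window holds GGCGCC 3 times, DUSP2 holds it 2 times and S100P 1 time, and SMAD6 holds GTCTAGAC 1 time. Of the 46 called genes 37 matched an entry, and 17 of these (45.9%) held GGCGCC in a listed promoter, beside 36.9% of the 8900 matched genes with a probe well above background on all 10 arrays and 22% of all 27305 genes. GTCTAGAC was in 2 of the 37, SMAD6 and DYNLT3, and in 16 of the 8900. ID1, ID2, ID3 and ID4 held neither in these windows.

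The next question was which genes stood higher at 24 h than in the early hours. S100P, ANXA1, PSCA, LXN, SEMA3B and ACOT11 did, and in each the mean ratio over the lines was highest at 24 h. For 24 h minus the early mean, limma called 14 probes higher (0.0348% of 40248) and 0 lower (0%, with 1464 higher, 3.64%, and 958 lower, 2.38%, at an unadjusted p under 0.05). All 14 were higher in all 5 lines, beside 3.4% of all probes (2.62% were lower in all 5), and well above background on all 10 arrays. Here too the shared sign goes with the call and is not separate support. Both comparisons use the 24 h arrays, so the values of a gene in each are given side by side and not as independent evidence.

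S100P, a calcium-binding protein of the S100 family, had log2 ratios at 24 h of 0.86, 1.12 and 1.43 in HCC1419, HCC1954 and MDA-MB-361 and of 0.96 and 1.60 in SK-BR-3 and ZR-75-30. At 30 min it lay between −0.18 and 0.20, and the groups did not overlap. Its difference from 30 min was 1.18 ± 0.12 (adjusted p = 2.87e-05, 5 of 5 lines) and that from the early mean was 0.85 ± 0.10 (adjusted p = 0.000288). S100P had the smallest p of all probes in the comparison with 30 min, and averaged 0.25, 0.31, 0.47, 0.60 and 1.19 at 1, 3, 6, 12 and 24 h.

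PSCA, prostate stem cell antigen, a membrane protein held by a lipid anchor, read 1.56, 0.75, 1.03, 0.73 and 1.18 at 24 h in the same order of lines, and −0.14 to 0.08 at 30 min. It rose by 1.08 ± 0.20 from 30 min (adjusted p = 0.0167) and by 1.09 ± 0.16 from the early mean (adjusted p = 0.0042), the only difference of the 14 above 2-fold. At 1 h PSCA lay below vehicle in ZR-75-30 (−1.08) and MDA-MB-361 (−0.56), which lowers its early mean, and from 6 to 24 h its mean ratio went from 0.17 to 1.05. The other PSCA probes gave 0.74 ± 0.17 and 0.08 ± 0.06 from 30 min (adjusted p = 0.0769 and 0.829) and did not pass. ANXA1, annexin A1, a phospholipid-binding protein with anti-inflammatory action, read 0.81, 0.13, 0.81, 1.25 and 1.16 across the lines. HCC1954 thus stayed near vehicle, and the mean difference was 0.93 ± 0.15 from 30 min (adjusted p = 0.00733) and 0.85 ± 0.12 from the early mean (adjusted p = 0.0042). LXN, latexin, an inhibitor of carboxypeptidases, also varied between lines, from 1.61 in HCC1419 to 0.34 in ZR-75-30 at 24 h, and rose by 0.72 ± 0.11 from the early mean (adjusted p = 0.00628).

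SEMA3B, a secreted semaphorin counted among tumour suppressors, rose by 0.94 ± 0.12 from 30 min (adjusted p = 0.000543) and by 0.60 ± 0.10 from the early mean (adjusted p = 0.0101), while its other probe gave 0.80 ± 0.19 from 30 min (adjusted p = 0.0919). ACOT11, an acyl-CoA thioesterase, rose by 0.87 ± 0.11 and 0.60 ± 0.09 (adjusted p = 0.000543 and 0.0042) with 1 of its 3 probes, the others giving 0.01 and 0.14 from 30 min (adjusted p = 0.977 and 0.722). For both genes every line was higher at 24 h than any line at 30 min, with ratios at 24 h of 0.52 to 1.37 for SEMA3B and 0.49 to 1.04 for ACOT11. The tubulin TUBA4A (0.44 ± 0.07), the dynein light chain DYNLT3 (0.40 ± 0.07), BCAS1, a gene amplified in breast cancer (0.52 ± 0.09), the liprin PPFIBP1 (0.49 ± 0.09) and the zinc finger protein ZHX1 (0.38 ± 0.07) were called against the early mean as well (adjusted p between 0.00451 and 0.0222). The other 3 probes of TUBA4A lay between −0.08 and 0.22 from 30 min and did not pass. The difference of ZHX1 from 30 min did not pass (0.27 ± 0.08, adjusted p = 0.312).

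The called genes also included glutathione enzymes, on which no list had been made and which were grouped after their values were seen. Their relative GSTM2 did not pass and GSTM4 lay near 0, as given at the end. GSTM3, a mu class glutathione transferase, rose by 0.46 ± 0.08 from 30 min and by 0.41 ± 0.06 from the early mean (adjusted p = 0.00733 and 0.00451), and a further GSTM3 probe by 0.63 ± 0.12 from 30 min (adjusted p = 0.0286) although it was lower in HCC1954 (−0.09). GSTM1 rose by 0.58 ± 0.10 (adjusted p = 0.0167) in 5 of 5 lines. The gamma-glutamyltransferase probes GGT1 (0.57 ± 0.12), GGTLC1 (on the array as GGTLA4, 0.55 ± 0.10) and GGTLC2 (as GGTL4, 0.51 ± 0.11) rose too (adjusted p between 0.0173 and 0.047), but these copies are nearly identical, and so are the mu class transferases, so the probes may not tell the members apart. HMOX1, haem oxygenase 1, rose by 0.99 ± 0.15 (adjusted p = 0.00419), from 0.33 in HCC1954 to 1.52 in HCC1419, and averaged 0.23, 0.41, 0.39, 0.56 and 0.90 at 1, 3, 6, 12 and 24 h.

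**Figure D2:**
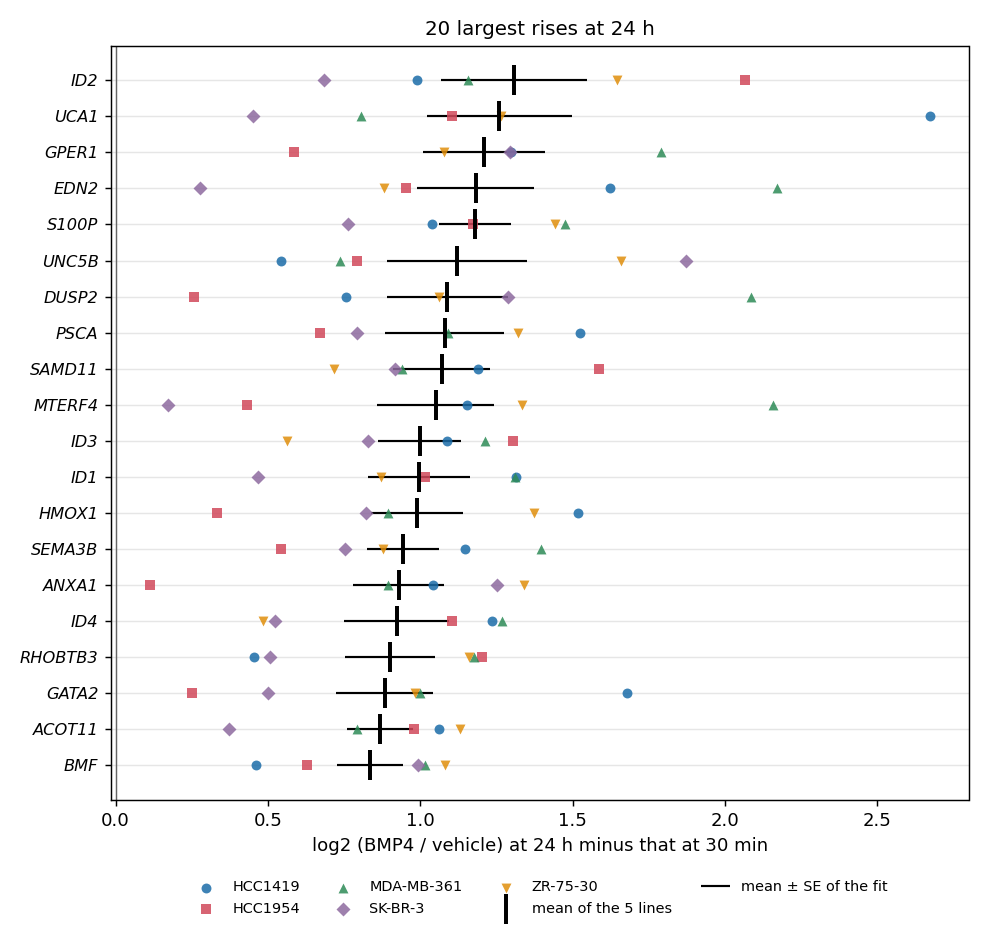
The 20 named genes with the largest called rises, in order of their mean. The horizontal axis is log2 of BMP4 over vehicle at 24 h minus that at 30 min, coloured symbols are the 5 lines, the black bar is their mean and the horizontal line the mean ± SE of the limma fit. All 100 symbols lie to the right of 0, from 0.11 (ANXA1 in HCC1954) to 2.67 (UCA1 in HCC1419).

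Among secreted factors and receptors, EDN2, the ligand endothelin 2, read 1.89, 1.29, 1.92, 0.22 and 1.30 at 24 h from HCC1419 through ZR-75-30, and −0.25 to 0.42 at 30 min. SK-BR-3 overlapped the 30 min arrays, and the mean rise was 1.18 ± 0.19 (adjusted p = 0.00733). IGFBP3, which binds insulin-like growth factors, behaved alike: its ratio at 24 h was 1.72, 0.44, 1.90, 0.14 and 1.23, with no rise in SK-BR-3, and the difference was 1.07 ± 0.22 (adjusted p = 0.0413), with a further probe at 0.62 ± 0.12 (adjusted p = 0.0321). IGFBP5 rose by 0.61 ± 0.13 (adjusted p = 0.0403). UNC5B, a netrin receptor, rose by 1.12 ± 0.23 (adjusted p = 0.0413), and here SK-BR-3 was the highest line at 1.87 and HCC1419 the lowest at 0.54. The 30 min array enters these line values: in SK-BR-3 the SD of all log2 ratios was 0.26 on the 30 min array and 0.16 on the 24 h array, while in each of the other lines it was larger at 24 h.

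UCA1, a long non-coding RNA first known from bladder carcinoma, had differences of 2.67, 1.11 and 0.81 in HCC1419, HCC1954 and MDA-MB-361 and of 0.45 and 1.26 in SK-BR-3 and ZR-75-30 (mean 1.26 ± 0.24, adjusted p = 0.0222). Its ratio at 24 h was not at least 2-fold above vehicle in 3 or more lines. Of 17 other settings of the fit, the call was kept in 9 for UCA1 and in 4 for UNC5B. MTERF4 (as MTERFD2), which acts on mitochondrial ribosomes, rose by 1.05 ± 0.19 (adjusted p = 0.0173) and by 0.63 ± 0.12 with another probe (adjusted p = 0.02), most in MDA-MB-361 (2.16 with the former), and its other 2 probes did not pass (0.63 and 0.13). The small GTPases RIT1 (0.57 ± 0.10) and RAB31 (0.59 ± 0.12) also passed (adjusted p = 0.00818 and 0.0321). ST3GAL5, the sialyltransferase that makes the ganglioside GM3, rose with 2 probes (0.74 ± 0.12 and 0.56 ± 0.11, adjusted p = 0.00475 and 0.0308), and so did RCAN3 (as DSCR1L2), a regulator of calcineurin (0.59 ± 0.10 and 0.41 ± 0.08, adjusted p = 0.016 and 0.0242). The kinase DAPK2 rose by 0.62 ± 0.10 (adjusted p = 0.00733). A POU5F1 probe rose by 0.49 ± 0.10 (adjusted p = 0.0413), while the other 3 POU5F1 probes lay between −0.09 and 0.05, and this gene has many pseudogenes with near-identical sequence.

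The BMP target and feedback list held 27 genes, of which 26 had a value. Of these 7 rose and 0 fell, beside 0.149% and 0.0149% of all probes. The 7 were ID1, ID2, ID3, ID4, GATA2, the homeobox gene DLX3 (0.84 ± 0.15, adjusted p = 0.013, another probe 0.04 ± 0.09) and the inhibitory SMAD6 (0.70 ± 0.14, adjusted p = 0.0326). The median difference was 0.50, beside 0.01 over all probes, and 20 of 26 lay above 0, beside 53.7% of all probes. In all 5 lines 14 were higher, beside 4.52% of all probes. At 24 h SMAD6 was highest in MDA-MB-361 (1.36), then SK-BR-3 (0.80), and lay at 0.33 to 0.36 in the other lines. ATOH8 (0.71 ± 0.15, adjusted p = 0.0532), the decoy receptor BAMBI (0.58 ± 0.15, adjusted p = 0.146) and the Notch and BMP target HEY1 (0.60 ± 0.18, adjusted p = 0.32) did not pass, and SMAD7 had a difference of 0.27 ± 0.11 (adjusted p = 0.62), with its highest mean ratio, 0.65, at 1 h. The secreted antagonists NOG (−0.11 ± 0.06), GREM1 (0.11 ± 0.06) and CHRD (0.60 ± 0.22) did not pass. None of the 14 receptors and SMADs passed (median 0.01), with SMAD1 at 0.22 and SMAD4 at −0.31. The list was chosen with the rise of the ID genes known, and its median over the 4 lines other than MDA-MB-361 was 0.35.

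Falls were few and small. CDCA7L, a nuclear protein that binds MYC, had ratios at 24 h of −0.33, −0.26, −0.74, −0.22 and −0.31 in the 5 lines, against 0.06 to 0.25 at 30 min. The groups did not overlap, and the difference was −0.48 ± 0.09 (adjusted p = 0.0173, lower in 5 of 5 lines). LRIG1, a membrane protein that restrains receptors of the ERBB family, read −0.28 to −0.49 at 24 h in the 5 lines, and its difference was −0.40 ± 0.08 (adjusted p = 0.0321). RGS16, which shortens G protein signals, fell by 0.46 on the log2 scale (SE 0.10, adjusted p = 0.0471; its other probe −0.25 ± 0.11, adjusted p = 0.681), and C1orf174, a gene of unknown function, by 0.36 (SE 0.06, adjusted p = 0.0167). RGS16 was below vehicle from 1 h on, with mean ratios of −0.36, −0.42, −0.49, −0.40 and −0.57 at 1, 3, 6, 12 and 24 h, whereas CDCA7L passed from 0.07 at 1 h to −0.11 at 6 h and −0.37 at 24 h. The other 2 lower probes carry only transcript numbers, and they came down from ratios above vehicle at 30 min (means 0.42 and 0.30) to near vehicle at 24 h (−0.03 and −0.09).

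**Figure D3:**
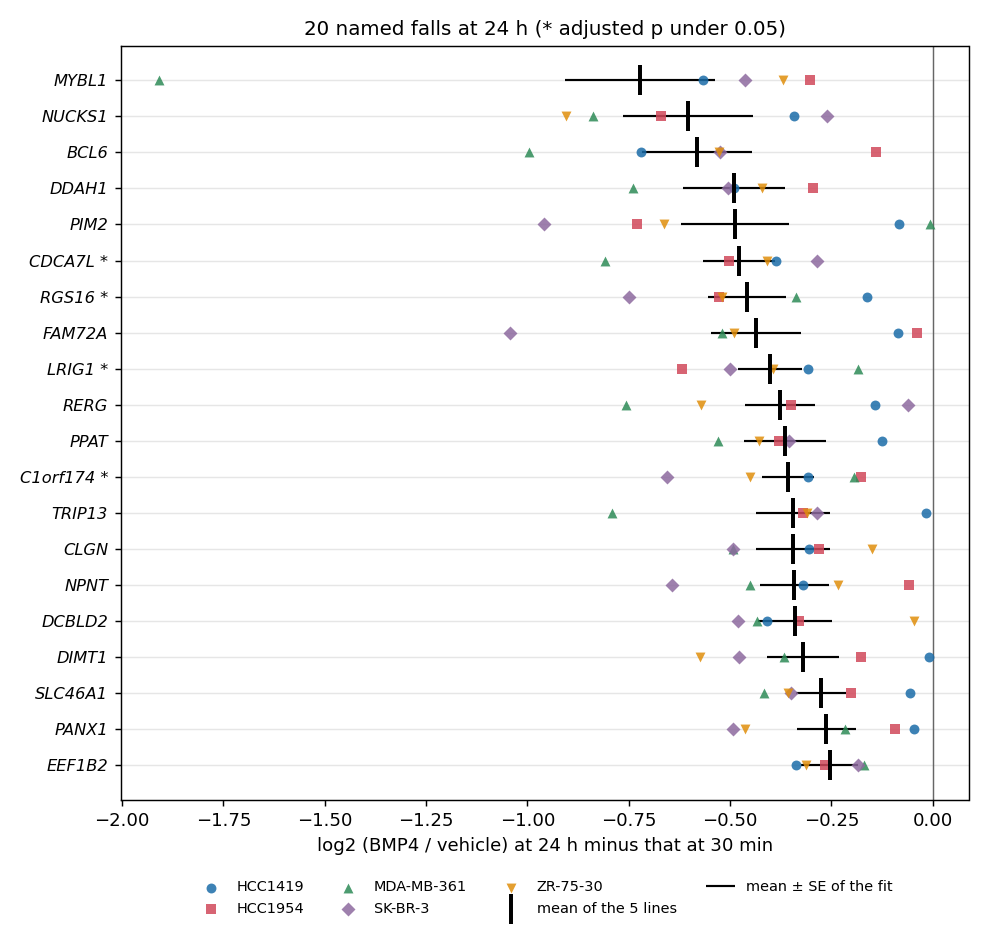
The 20 named genes with falls at 24 h, 4 called (asterisk) and 16 filled in by the smallest unadjusted p. Axes and symbols are as for the rises: coloured symbols are the 5 lines, the black bar their mean and the horizontal line the mean ± SE. All lie left of 0, and MYBL1 in MDA-MB-361 stands apart at −1.91.

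The 16 further genes with falls in all 5 lines were chosen by the smallest unadjusted p and did not pass (adjusted p between 0.0769 and 0.244). They included BCL6, a transcriptional repressor, at −0.58 ± 0.13 (adjusted p = 0.0919), with ratios at 24 h of −0.75 in HCC1419 and −0.05 in HCC1954 and the lowest in MDA-MB-361. MYBL1, a transcription factor of the MYB family, was at −0.72 ± 0.18, NUCKS1, a chromatin protein, at −0.60 ± 0.16, and the kinase PIM2 at −0.49 ± 0.13. The folate transporter SLC46A1 (−0.28 ± 0.06), the growth inhibitor RERG (−0.38 ± 0.09), the checkpoint ATPase TRIP13 (−0.34 ± 0.09), the purine synthesis enzyme PPAT (−0.36 ± 0.10) and the elongation factor EEF1B2 (−0.25 ± 0.07, but 0.12 with 1 scaling factor per array) belonged to the same group. The others were NPNT, FAM72A, DDAH1, CLGN, DCBLD2, DIMT1 (as DIMT1L) and PANX1, between −0.26 and −0.49. For 24 h minus the early mean, no probe was called lower, and the named genes with the smallest p were NUDT1, which clears oxidised nucleotides (−0.27 ± 0.05, adjusted p = 0.0649), SERTAD4 (−0.29 ± 0.06, adjusted p = 0.0735) and NR2C2AP (as TRA16, −0.24 ± 0.05, adjusted p = 0.0825). The remaining 7 of these, CDCA7L, TRIP13, C1orf174, TSPAN4, PHF19, EMC9 (as C14orf122) and FOXRED2, lay between −0.18 and −0.33. With 1 scaling factor per array in place of loess, 0 probes were called lower than at 30 min and the 6 had no unadjusted p under 0.05, while all stayed below 0.

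Genes of the cell cycle were then read as groups. Of 29 DNA replication genes with a value all lay below 0, beside 46.3% of all probes, with a median of −0.30, and 0 passed (11 were lower at an unadjusted p under 0.05, beside 2.6% of all probes). This median rested on MDA-MB-361. The median difference was −1.26 there, −0.09 and 0.06 in the HCC lines, −0.12 and −0.08 in the pair SK-BR-3 and ZR-75-30, and the median over the 4 lines other than MDA-MB-361 was −0.06. Averaged over these 4 lines 23 of the 29 genes lay below 0, and in HCC1954 alone 19 lay above 0. In MDA-MB-361 all 29 were lower and 19 were at least 2-fold lower, among them the replication factor CDC45 (−2.04), thymidylate synthase TYMS (−1.78), the ribonucleotide reductase subunit RRM2 (−1.60), the sliding clamp PCNA (−1.45) and the origin licensing factor CDC6 (−1.41). At 6, 12 and 24 h the median ratio of the list in this line was −0.09, −0.41 and −1.17. Each line has 1 array per time, so MDA-MB-361 has no replicate check, and fewer cells in S phase and less RNA per cell cannot be told apart in bulk RNA.

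Of 32 mitosis genes 31 lay below 0, beside 46.3% of all probes, with a median of −0.19. Of these 0 passed, and 9 were lower at an unadjusted p under 0.05, beside 2.6% of all probes. Here too MDA-MB-361 was the lowest line, but not apart from the rest: it had a median of −0.47 and ZR-75-30 of −0.34, SK-BR-3 one of −0.15, and HCC1954 and HCC1419 lay at −0.01 and −0.00. Over the 4 lines other than MDA-MB-361 the median was −0.10, with 25 of the 32 genes below 0. TOP2A, the topoisomerase of dividing cells, was at −1.45 in MDA-MB-361 and −1.08 in ZR-75-30 but 0.23 in HCC1954 and 0.22 in SK-BR-3, and BIRC5, survivin, was lower in 5 of 5 lines (−0.42, adjusted p = 0.364). With 1 scaling factor per array in place of loess, the mitosis median was 0.08 and the replication median −0.03, while the median of all probes well above background moved from 0.03 to 0.25, so that both lists stayed below it. Among CDK inhibitors, D cyclins and MYC 0 of 15 passed, with CDKN1A (p21) at 0.50 (adjusted p = 0.553), CDKN1C at 0.22 (adjusted p = 0.528) and MYC at −0.44 (adjusted p = 0.733).

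**Figure D4:**
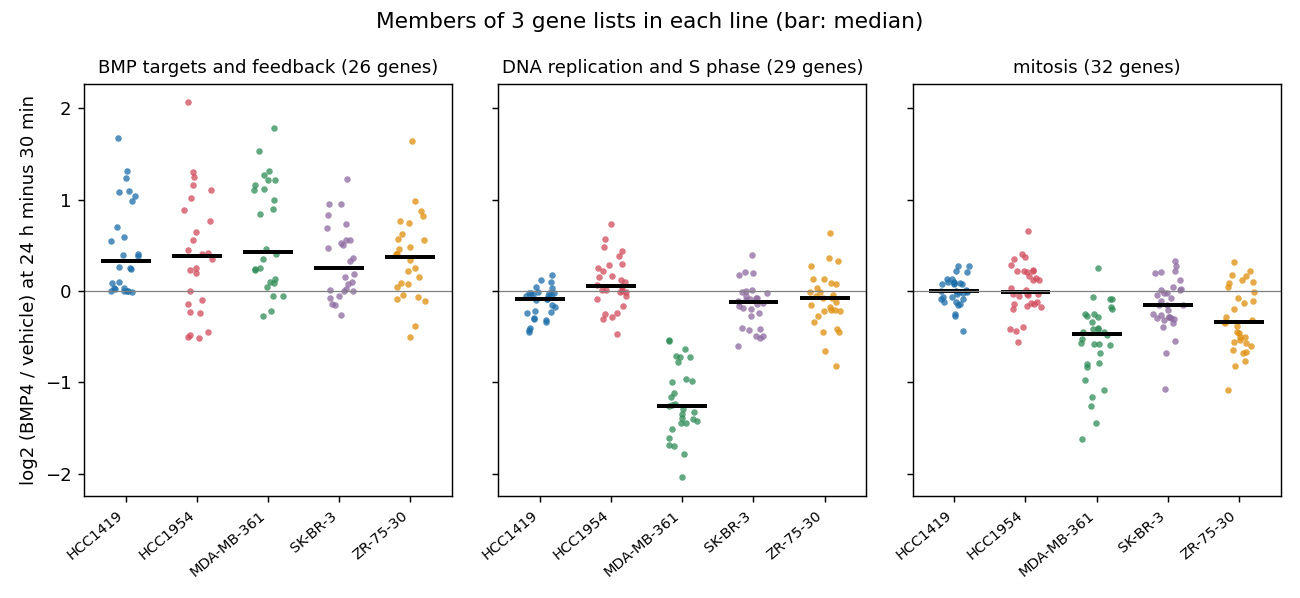
Difference of log2 BMP4 over vehicle between 24 h and 30 min (vertical axis) for the members of 3 gene lists in each of the 5 cell lines (horizontal axis). Each point is 1 gene and the black bar is the median, which for the replication genes reaches −1.26 in MDA-MB-361 while the 4 remaining lines lie from −0.12 to 0.06.

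Of 20 keratins and squamous differentiation genes 15 lay above 0, beside 53.7% of all probes, with a median of 0.17 and 0 called (7 higher at an unadjusted p under 0.05, beside 4.47% of all probes). Only 8 of the 20 were well above background on all 10 arrays. The cornified envelope protein IVL was at 0.55 (adjusted p = 0.218), KRT15 at 0.45 (adjusted p = 0.319), KRT7 at 0.44 (adjusted p = 0.347) and KRT13 at 0.29 (adjusted p = 0.204). In the BCL2 family BMF passed among 18 genes, and the median was 0.13. DUSP2 was the only one of 14 MAP kinase phosphatases and feedback genes to pass (median −0.02), and MAP3K5, a stress kinase of that list, had a difference of 0.72 ± 0.21 (adjusted p = 0.265), its mean ratio being 1.08 at 3 h and 0.96 at 24 h. GPER1 was the only one of 18 luminal transcription factors and receptors to pass (median −0.08). Among 18 immediate early genes JUNB came nearest (0.62 ± 0.14, adjusted p = 0.0769). None passed among TGF-beta type SMAD2 and SMAD3 targets (median 0.03), epithelial-mesenchymal transition genes (0.02), extracellular matrix and integrin genes (0.02), WNT and Notch genes (0.02), interferon response genes (0.06), unfolded protein and amino acid stress genes (−0.01), hypoxia and glycolysis genes (0.11), cholesterol and fatty acid synthesis genes (−0.00) or reference genes (−0.01).

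The study's filter for a time point, a ratio of at least 2-fold, was also applied to the 24 h arrays. In 3 or more of the 5 lines 16 of 40899 probes were at least 2-fold higher (0.0391%) and 0 at least 2-fold lower (0%). These were ID1, ID2 with 2 probes, ID3, ID4, EDN2, GPER1, S100P, PSCA, IGFBP3, MTERF4, JUNB, MAP3K5, the incretin receptor GIPR and 2 transcripts without a gene symbol. GIPR read 0.77, 1.09, 0.95, 1.07 and 1.07 at 24 h. Such ratios are against vehicle and, unlike the differences from 30 min, keep any dye bias. The lines differed widely: 318 probes were higher and 265 lower in MDA-MB-361, 209 and 131 in ZR-75-30, 79 and 15 in HCC1419, 69 and 1 in HCC1954, and 25 and 4 in SK-BR-3. These counts moved with the scaling. With the log ratio of the scanner software 71 probes were higher and 10 lower in 3 or more lines, MDA-MB-361 had 1092 higher and 1242 lower, SK-BR-3 486 and 331, and HCC1954, then the line with the fewest, 397 and 202. With 1 scaling factor per array HCC1419 had 6301 higher and 13 lower.

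The calls depended on which lines and which scan days entered. With the scan day within a line as a further block 31 probes were higher and 0 lower, and 28 of the 60 higher probes were called again, S100P, SEMA3B, ACOT11, BMF, ID3, SAMD11 and HMOX1 among them. The ID2 probe with the larger rise (1.15, adjusted p = 0.105), ID1 (0.90, 0.115), ID4 (0.91, 0.145), GPER1 (1.22, 0.062), DUSP2 (1.17, 0.0644), PSCA (1.14, 0.0958), ANXA1 (0.89, 0.0841) and UNC5B (0.94, 0.353) kept differences near those above and did not pass. The other ID2 probe was called again. In the lines scanned on 1 day, HCC1419 and MDA-MB-361, 44 were higher and 7 lower, with 20 of the 60 and 0 of the 6 called again. With the scan day block all 60 lay above 0 and all 6 below 0. Without MDA-MB-361 10 probes were higher and 1 lower, and 9 of the 60 were called again. Without HCC1419 these counts were 18 and 0, without HCC1954 48 and 7, without SK-BR-3 51 and 0, and without ZR-75-30 27 and 0. With the cell line block left out, 10 were higher and 0 lower.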

How the data were processed

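The samples were 30 two-colour Agilent arrays with 6 time points and 1 array per cell line and time; the 5 at 24 h, those at 30 min and those at 1, 3 and 6 h gave the contrasts, and the rest the spread. The authors quantified the scans with Agilent Feature Extraction (9.5.1.1, with probe positions in build hg18, per the file headers), and the deposited files give mean signals and local backgrounds as raw intensity values, processed signals as background-subtracted and dye-normalized intensity values, and a log10 ratio of Cy5 over Cy3. The authors' series matrix holds log2 ratios with each array's median at 0. From the intensity values, normexp correction (offset 50) on all spots and loess within each array, with the 1639 control spots at weight 0, gave log2 ratios, averaged per probe. Spots that the software marked as outliers were left out and saturated spots kept. Contrasts were fitted with limma 3.58.1 in R 4.3.3 (lmFit, eBayes, Benjamini-Hochberg adjustment over 40248 probes with a value on all 30 arrays, called under 0.05), with a fixed term for each cell line as the block. The number of arrays limits the precision. Replicate numbers are the lines (1 and 2 the HCC lines, 3 MDA-MB-361, 4 SK-BR-3, 5 ZR-75-30), and they pair the arrays because each is 1 cell line; the deviations of a line's 24 h and 30 min arrays from their time point means correlated across probes with r = 0.10, −0.30, 0.40, −0.15 and 0.26. The p-values and SEs measure how far lines depart from a shared time course, pooled over all 6 time points, with 1 pooled RNA per channel. They do not measure the spread of the 5 paired differences alone.

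Named genes were the 20 largest called changes in each direction (10 for the comparison with 1 to 6 h) with the same sign in 5 lines, a gene symbol and a signal well above background on all 10 arrays, filled by p where fewer passed, with ID1 to ID4, DUSP2, MAP3K5, GPER1, SAMD11 and list members. Other called genes were named after their values were seen. List genes were read by the probe with the highest mean intensity. The members, lists and tests were chosen with earlier results of these data known. Of 41000 probes 27478 had an array name that is a gene symbol and matched RefSeq (GRCh38.p14). The fit was tested on simulated data with the real probes' spread. For 24 h minus 30 min over 40248 probes it called 79% of 100 changes of 0.5 and 96% of 100 changes of 1. It also called 10 of the 40048 probes given no change. Whether these rates hold for real probes, whose differences varied between lines, was not tested.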

Additional observations from a re-analysis of the deposited data

Results flagged for a closer look

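Of 43 results tested for a line that stands apart (the 40 named genes of the comparison with 30 min and 3 list medians), 2 were flagged, where chance flags about 1 in 20 such groups. The difference of MYBL1 between 24 h and 30 min was −1.91 in MDA-MB-361, with the 4 remaining lines from −0.57 to −0.30, a gap that exceeds Dixon's critical value for 5 values (0.71). The median of the DNA replication genes reached −1.26 in MDA-MB-361, the 4 remaining lines lying from −0.12 to 0.06, by the same measure.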

How the results depend on the processing

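For 24 h minus 30 min, 60 probes were higher and 6 lower. Higher counts were 7 with 1 scaling factor per array instead of loess, 312 with array weights, 0 on the 10 arrays alone, 35 with an intensity trend and robust prior and 31 with the scan day as a block. Lower counts under these settings were 0, 30, 0, 3 and 0, and 10 with the software's log ratio. Without the replicate block the counts were 10 and 0, and the block pairs arrays of 1 line. Leaving out a line gave 10 to 51 higher and 0 to 7 lower. For 24 h minus the mean of 1, 3 and 6 h (14 higher, 0 lower), higher counts were 32 and 26 with the software's and the matrix's ratios, 0 with 1 factor per array, 34 with no background correction, 133 with array weights, 22 with the scan day as a block, 5 in the lines scanned on 1 day and 7 without the replicate block. Lower counts were 8 with the software's log ratio, 6 with no background correction and 26 with array weights, and leaving out a line gave 3 to 12 higher and 0 to 2 lower. Probes 2-fold higher in 3 or more lines numbered 71, 60 and 79 with the software's ratio, the matrix and 1 factor, against 16, and 2-fold lower 10, 10 and 0, against 0. The BMP target median was 0.67 with the series matrix and 0.57 with 1 factor per array, against 0.50, and leaving out a line gave 0.32 (MDA-MB-361) to 0.51. The 0.32 includes members with a value on every array kept, and the 26 members with a value on all arrays gave 0.35. The mitosis median was 0.0794 with 1 factor per array. For 24 h minus 30 min, single genes turned above 0 under that setting alone: EEF1B2 (0.12), NUDT1 (0.0822), NR2C2AP (0.16), PHF19 (0.20) and EMC9 (0.19). NUDT1, NR2C2AP, PHF19 and EMC9 were named for their falls from the mean of 1, 3 and 6 h. In that comparison they stayed below 0 under every setting, the values nearest 0 being −0.11, −0.08, −0.03 and −0.02. The other settings kept the counts of calls higher within 1.5 times. The cause of these shifts was not tested. Probes near background on either array have the least certain ratios.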

Other observations

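Values of relatives of the called genes were read after the calls were known, as 24 h minus 30 min with the limma adjusted p. S100A4 (0.58 ± 0.13, adjusted p = 0.0606), S100A6 (0.60 ± 0.15, adjusted p = 0.11) and the annexin ANXA9 (0.35 ± 0.08, adjusted p = 0.051) lay above 0 beside S100P and ANXA1 without passing, and S100A9 was at 0.19 ± 0.10 (adjusted p = 0.723). The adhesion molecule CEACAM6 gave 0.66 ± 0.16 and 0.53 ± 0.18 with 2 probes (adjusted p = 0.107 and 0.427).

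Beside the rises of HMOX1, GSTM1 and GSTM3, some other genes known to respond to oxidative stress were read, and these did not pass. They too were picked after the calls were known, and no cause of the rises was tested. NQO1 was at −0.05 ± 0.12 (adjusted p = 0.962), TXNRD1 at −0.21 ± 0.19 (adjusted p = 0.871) and SRXN1 at 0.02 ± 0.08 (adjusted p = 0.98). The mu class transferase GSTM2 was at 0.13 ± 0.07 (adjusted p = 0.719), and the 3 probes of GSTM4 lay between −0.08 and 0.05.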
